A study of Canis lupus familiaris with 32 samples.

Results

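DKK3, FRZB, CSNK1A1 and CTNNA1 are 4 genes of Wnt and catenin biology that were measured in primary canine osteosarcomas. Every probe that the platform annotation assigned to 1 of these symbols was taken, which gave 9 of the 22176 probes on the array and 4 of the 5246 genes with a symbol. DKK3 had 1 probe (number 5027), FRZB had 2 (1035 and 3606), CSNK1A1 had 3 (8654, 11072 and 16673) and CTNNA1 had 3 (6530, 12136 and 16040). None of their values was missing.

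Wnt proteins are secreted signals that, through Frizzled receptors, keep beta-catenin from being broken down, so that it can enter the nucleus and switch on target genes. FRZB, also known as SFRP3, is a secreted protein that binds Wnt outside the cell and is abundant in cartilage, while DKK3 is a secreted member of the Dickkopf family whose action on Wnt depends on the cell. CSNK1A1, casein kinase 1 alpha, places the priming phosphate on beta-catenin in the destruction complex, and CTNNA1, alpha-catenin, ties beta-catenin and cadherins to actin at adherens junctions. In bone this pathway drives the osteoblast lineage.

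Each of 32 tumors was hybridized on 1 cDNA array with 2 dyes against a pool of RNA from all 32, so a tumor equal to the pool has a log2 ratio of 0. The dogs, of several breeds and aged 2 to 11 years, had received no therapy before the tumor was taken at surgery. The 16 short survivors (SS) lived less than 6 months and the 16 long survivors (LS) 6 months or longer, with 7 females in each group, and 9 SS and 12 LS dogs were given chemotherapy after surgery. A fibroblastic component was recorded in 7 SS and 9 LS tumors, a chondroblastic component in 4 and 4, and a telangiectatic component in 1 and 3, while 6 SS and 2 LS tumors were osteoblastic only. Grade was high in 13 SS and 12 LS tumors, and the other 7 tumors were of medium or, in 1 LS dog, low grade. Each tumor came from a different dog and was a mixture of tumor, stroma, vessels and bone cells. In such bulk samples, fewer cells of a type and less RNA per cell cannot be told apart. A ratio to the pool also gives no level that can be compared between genes.

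The tumor carried the dye Cy5 on 16 arrays and Cy3 on the other 16, with 8 of each orientation in each survival group. Orientation left a strong trace in the table: across probes, the mean of the Cy5 arrays and the mean of the Cy3 arrays correlated at r = -0.657. The SS minus LS differences found within the Cy5 arrays and within the Cy3 arrays correlated at r = -0.100 across all probes and had the same sign at 47.2% of them. Genes are not independent replicates, so these are descriptions of the table. For the 9 probes studied here the sign was the same in both orientations at 6. That a positive ratio means tumor above pool rests on the reversal of the swapped arrays stated in the study's methods. If the Cy3 ratios had the other sign, SS minus LS would be -0.14 for DKK3, -0.0058 for FRZB probe 1035 and -0.0082 for CTNNA1 probe 12136. The SS minus LS differences of the 9 probes are therefore also given within each orientation, and "centred" marks a log2 ratio from which the mean of the tumors in the same dye was subtracted.

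The log2 ratio of DKK3, the Dickkopf family member, was lower on average in SS tumors than in LS tumors. In SS tumors it ran from -2.87 through a median of -0.60 to 1.53, and in LS tumors from -1.01 through 0.11 to 1.31. The ratio was below 0 in 13 of 16 SS tumors and in 6 of 16 LS tumors. On the centred scale 14 of 16 SS tumors lay below the LS median, yet the groups overlapped, since SS tumor 6 held the highest value of all and SS tumor 1 the lowest. SS was lower than LS by a log2 difference of -0.75 (SE 0.283, unadjusted p = 0.0125), which did not pass the threshold of 0.10 after Benjamini-Hochberg adjustment in limma (adjusted p = 0.571). Within the Cy5 arrays the difference was -0.89 and within the Cy3 arrays -0.61. Leaving out any 1 tumor kept it between -0.89 and -0.60. The spread of DKK3 over tumors was wide, with an SD of 0.896 on the centred scale, above that of 95.1% of all probes, where the median SD was 0.273.

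FRZB was high in a few LS tumors. At probe 1035 SS tumors ran from -1.06 through a median of -0.36 to 0.09, and LS tumors from -0.77 through -0.33 to 1.76. At probe 3606 SS tumors ran from -0.41 through -0.19 to 0.25, and LS tumors from -0.55 through 0.03 to 0.89. The medians at probe 1035 thus lay close together, while LS tumors 22, 25, 26 and 29 exceeded every SS tumor at both probes. SS minus LS was -0.48 at probe 1035 (SE 0.205, unadjusted p = 0.0254, limma adjusted p = 0.624) and -0.20 at probe 3606 (SE 0.114, unadjusted p = 0.0962, limma adjusted p = 0.754). Within orientations probe 1035 gave -0.49 in Cy5 and -0.47 in Cy3, whereas probe 3606 gave 0.01 in Cy5 and -0.40 in Cy3. The pair of probes correlated over the 32 tumors at a Pearson r of 0.716 and a Spearman rho of 0.449 on the centred scale, and the plot of probes of the same gene shows that the high LS tumors set them apart from the rest.

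**Figure D1:**
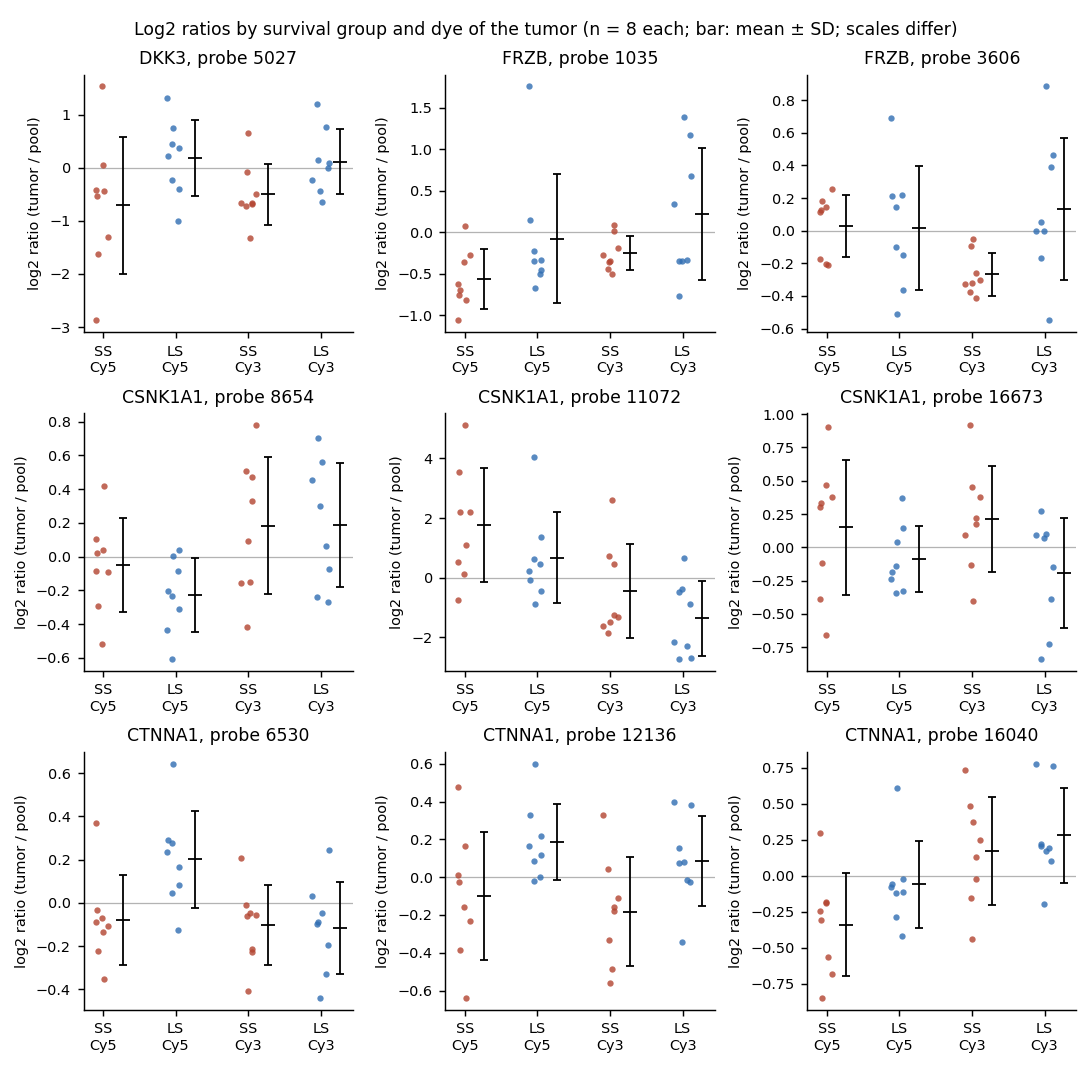
Log2 ratio of tumor over pool (y axis, a separate scale in each panel) for each of the 9 probes, by survival group and dye of the tumor (x axis, 8 tumors each). Points are tumors and bars are mean ± SD. SS points of DKK3 lie mostly under the LS points in both dyes, and CSNK1A1 probe 11072 has a mean of 1.21 in Cy5 and -0.92 in Cy3.

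CSNK1A1, the kinase of the destruction complex, was measured by 3 probes that did not all vary together. Probe 16673 ran in SS tumors from -0.66 through a median of 0.26 to 0.92 and in LS tumors from -0.84 through -0.14 to 0.37. On the centred scale 13 of 16 SS tumors were above the LS median and 6 SS tumors were above every LS tumor. SS minus LS at this probe was 0.32 (SE 0.136, unadjusted p = 0.0243, limma adjusted p = 0.624), with 0.24 within Cy5 and 0.41 within Cy3. Probe 8654 ran from -0.52 through 0.03 to 0.78 in SS and from -0.61 through -0.08 to 0.70 in LS, and its groups overlapped almost entirely. Its difference was 0.09 (95% interval -0.17 to 0.35), with 0.18 within Cy5 and -0.0042 within Cy3.

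The third CSNK1A1 probe, 11072, stood apart from the other two. It ran from -1.85 through 0.49 to 5.12 in SS and from -2.74 through -0.42 to 4.04 in LS, and its mean was 2.13 higher when the tumor was in Cy5 than in Cy3. The other 8 probes had dye differences between -0.43 and 0.17. Its centred SD of 1.60 exceeded that of 97.9% of all probes, and it correlated at only r = 0.0632 with probe 8654 and 0.188 with probe 16673, which correlated at 0.648 with each other. SS minus LS at probe 11072 was 1.00 with a 95% interval of -0.31 to 2.32 (unadjusted p = 0.130, limma adjusted p = 0.781), and it was 1.10 within Cy5 and 0.91 within Cy3. Whether this probe measures the same transcript as the other two was not tested.

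**Figure D2:**
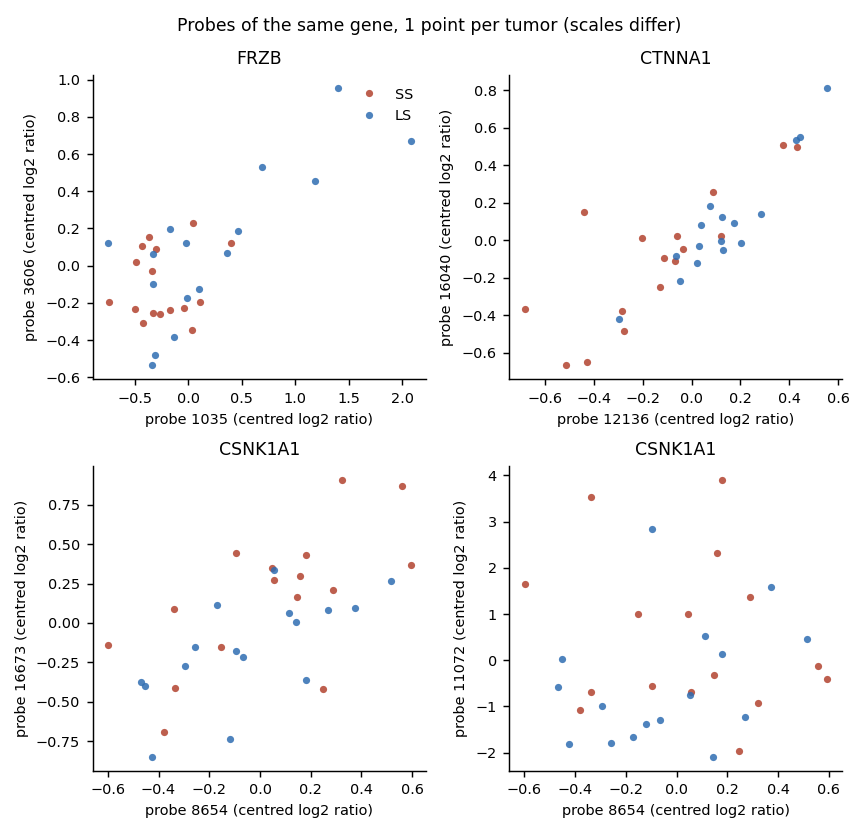
Centred log2 ratios of 2 probes of the same gene (x and y axes), 1 point per tumor, SS red and LS blue. CTNNA1 probes follow each other (r = 0.852), FRZB probes agree mainly through 4 LS tumors at the upper right, and CSNK1A1 probes 8654 and 11072 show little relation (r = 0.0632).

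CTNNA1, the junction protein, gave lower means in SS than in LS at all 3 probes, with small differences. Probe 12136 ran in SS tumors from -0.64 through a median of -0.16 to 0.48 and in LS tumors from -0.34 through 0.10 to 0.60, and 14 of 16 SS tumors lay below the LS median on the centred scale. The difference at this probe was -0.28 (SE 0.0951, unadjusted p = 0.00637, limma adjusted p = 0.546), with -0.29 within Cy5 and -0.27 within Cy3. Probe 6530 ran from -0.41 through -0.08 to 0.37 in SS and from -0.44 through 0.04 to 0.64 in LS. Its difference was -0.13 (unadjusted p = 0.119), made up of -0.28 within Cy5 and 0.01 within Cy3. Probe 16040 ran from -0.85 through -0.17 to 0.73 in SS and from -0.42 through 0.04 to 0.78 in LS, with a difference of -0.20 (unadjusted p = 0.168), -0.28 within Cy5 and -0.11 within Cy3. The 3 probes agreed well over tumors, with r between 0.804 and 0.857 on the centred scale, so they are repeated readings of the same tumors rather than separate evidence. CTNNA1 varied less than DKK3, with a centred SD of 0.222 to 0.342.

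Counted together, 0 of the 9 probes passed the adjusted threshold between SS and LS, where 0% of all probes passed. At an unadjusted p under 0.05, 4 of the 9 were found (3 lower in SS and 1 higher), beside 7.13% of all probes. These 4 belonged to 4 different genes, DKK3, FRZB, CSNK1A1 and CTNNA1. The genes were chosen with earlier results of these data known, so the count is not a test of them as a set. With dye orientation as a block, 0 of the 9 passed the adjusted threshold, beside 0.424% of all probes, and the lowest adjusted p among them in limma was 0.204, for CTNNA1 probe 12136. The same block brought 4 of the 9 under an unadjusted p of 0.05, beside 14.1% of all probes. The test of whether the survival difference itself changed with orientation called 0 of the 9 and 10.8% of all probes. Its smallest adjusted p among the 9 in limma was 0.266, for CTNNA1 probe 6530. With array weights this probe alone of the 9 passed (limma adjusted p = 0.0931), where 3965 of all 22176 probes passed.

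**Figure D3:**
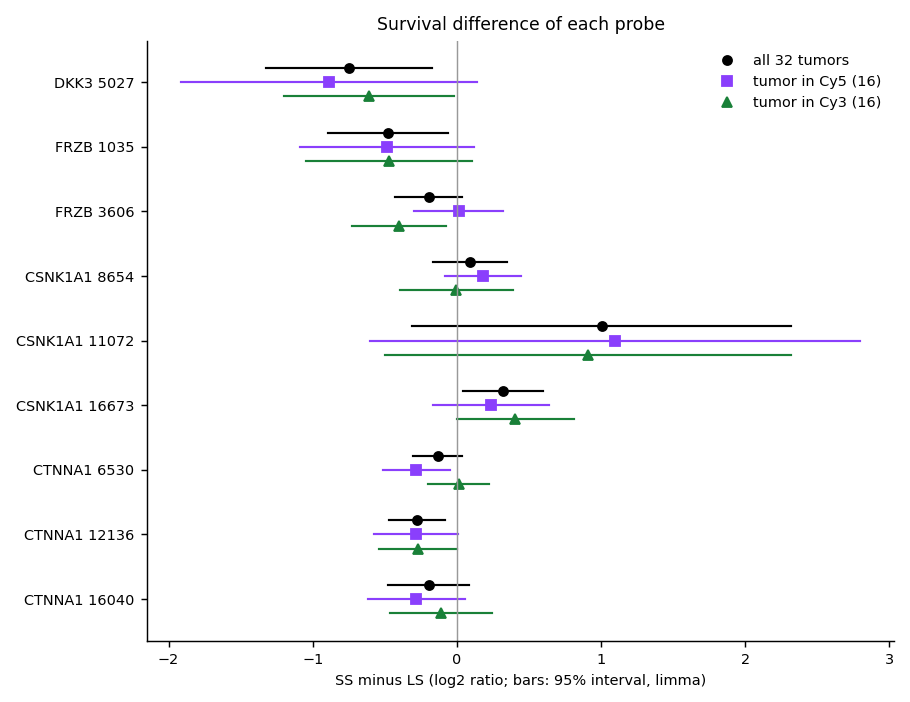
SS minus LS difference in log2 ratio (x axis) for each probe (y axis) over all 32 tumors, the 16 in Cy5 and the 16 in Cy3, with 95% intervals from limma. DKK3 lies to the left of 0 and CSNK1A1 probe 16673 to the right in all 3 sets, while FRZB probe 3606, CSNK1A1 probe 8654 and CTNNA1 probe 6530 sit on different sides of 0 in the 2 dyes.

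By histology, the lowest p-values were those of FRZB and the fibroblastic component. At probe 1035 the 16 tumors with this component had centred log2 ratios from -0.75 through a median of -0.32 to 0.10, and the 16 without it from -0.43 through 0.04 to 2.08. At probe 3606 the range was -0.54 through -0.18 to 0.19 with the component and -0.35 through 0.12 to 0.95 without. Only 2 and 5 of the 16 fibroblastic tumors were above 0 at the 2 probes. With dye orientation in the model the difference was -0.61 at probe 1035 (SE 0.188, unadjusted p = 0.00303, limma adjusted p = 0.496) and -0.31 at probe 3606 (SE 0.105, unadjusted p = 0.00568, limma adjusted p = 0.535). Within orientations the values were -0.53 and -0.68 at probe 1035 and -0.34 and -0.28 at probe 3606, for Cy5 and Cy3 in turn. Leaving out any 1 tumor gave -0.66 to -0.48 and -0.35 to -0.26.

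With the ratios as deposited, long survivors without a fibroblastic component had the highest FRZB means of the 4 combinations of survival group and component, an order that did not hold with the Cy3 sign turned. In these 7 LS tumors the mean centred ratio was 0.88 ± 0.72 (SD) at probe 1035 and 0.43 ± 0.32 at probe 3606, and at probe 3606 all 7 were above 0. The 9 SS tumors without the component averaged -0.15 ± 0.27 and -0.06 ± 0.22, the 7 SS tumors with it -0.36 ± 0.27 and -0.15 ± 0.15, and the 9 LS tumors with it -0.26 ± 0.24 and -0.16 ± 0.26. The 4 LS tumors that exceeded every SS tumor were all among the 7. Of these 7 LS tumors 2 were osteoblastic only, against 6 of the 9 SS tumors without the component. The other histological components were thus not balanced between them, and their part in the FRZB means was not tested. The interaction of survival group with the fibroblastic component was 0.93 at probe 1035 (SE 0.288, unadjusted p = 0.00290) and 0.50 at probe 3606 (SE 0.179, unadjusted p = 0.00952). Neither passed after adjustment in limma (adjusted p = 0.9997 for both), and the count of 2 of the 9 probes under an unadjusted p of 0.05 stands beside 2.9% of all probes. With the Cy3 sign turned, the 7 LS tumors without the component had the lowest means of the 4 combinations, -0.16 at probe 1035 and -0.15 at probe 3606, and the interaction was -0.43 and -0.17 (unadjusted p = 0.344 and 0.481).

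Within the tumors without a fibroblastic component, SS minus LS of FRZB was -1.03 and -0.49 at the 2 probes (unadjusted p = 9.65e-04 and 0.00245, limma adjusted p = 0.902 for both, orientation in the model). Within the tumors with the component it was -0.10 and 0.0030. Without the component 6 of the 9 probes had an unadjusted p under 0.05, beside 4.96% of all probes. Besides FRZB these were CSNK1A1 probe 11072 with 1.56 (limma unadjusted p = 0.0371) and the 3 CTNNA1 probes with -0.22, -0.34 and -0.36 (limma unadjusted p = 0.0357, 0.0156 and 0.0481). Probes of the same gene are repeated readings of the same tumors, so the 6 are not separate results. DKK3 gave values in the other order, with SS minus LS of -0.50 without the component and -1.18 with it (unadjusted p = 0.00523, limma adjusted p = 0.339). All 7 SS tumors with a fibroblastic component had DKK3 below 0 on the centred scale, against 3 of 9 such LS tumors. The interaction for DKK3 was -0.68 (SE 0.570, unadjusted p = 0.240), so a dependence of its survival difference on the component was not shown. These splits were made after the FRZB values had been seen.

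**Figure D4:**
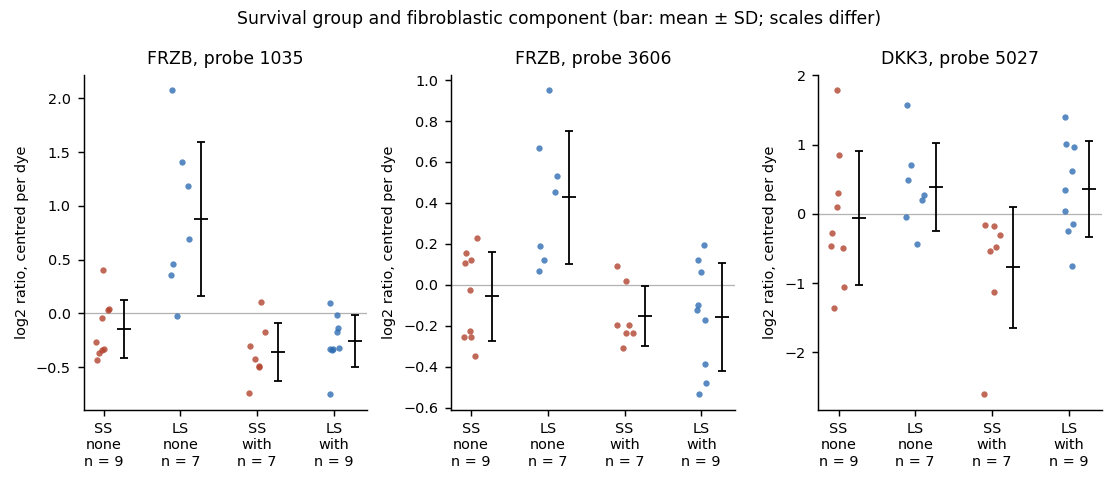
Centred log2 ratio (y axis, a separate scale in each panel) of both FRZB probes and of DKK3, by survival group and by absence (none) or presence (with) of a fibroblastic component (x axis). Points are tumors and bars are mean ± SD. The 7 LS tumors without the component average 0.88 and 0.43 for FRZB, and the 7 SS tumors with it are all below 0 for DKK3.

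Cartilage markers were set beside FRZB. COL2A1 and COMP, a cartilage collagen and a cartilage matrix protein, were the only genes of the chondrocyte list on the array. Their mean centred ratio was -0.37 in tumors with a fibroblastic component (range -1.63 to 1.60) and 0.37 in tumors without it (range -1.48 to 3.00). The median was 1.08 in the 7 LS tumors without the component and 0.08 in the 9 SS tumors without it. Their ranges were -1.23 to 3.00 and -1.48 to 2.02. In the whole groups the median had the other order, 0.01 in SS and -0.33 in LS, while the means were -0.16 and 0.16. Over the 32 tumors this marker mean correlated with FRZB at r = 0.416. The mean of 4 epithelial genes (KRT8, KRT18, EPCAM and DSP) correlated with FRZB at r = 0.337. COL2A1 and COMP had 5 probes, of which 0 had an unadjusted p under 0.05 in limma between SS and LS, beside 7.13% of all probes. By fibroblastic component 1 of the 5 did, lower with the component, beside 6.89% of all probes. The part of cartilage content in the FRZB differences was not tested.

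The labels of histology were checked against the same markers. Tumors recorded with a chondroblastic component had a chondrocyte marker mean of -0.04, and those without it 0.01, so these 2 markers did not set the 8 labelled tumors apart. For 9 fibroblast genes the mean was 0.04 with and -0.04 without a fibroblastic component. A ratio to a pool of the same tumors cannot show whether a marker is present, only whether it is higher or lower than in the pool.

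The remaining members showed less by fibroblastic component. CSNK1A1 probe 8654 was higher in tumors with it by 0.22 (SE 0.107, unadjusted p = 0.0449, limma adjusted p = 0.714), with 0.24 within Cy5 and 0.20 within Cy3. DKK3 differed by -0.27 (95% interval -0.91 to 0.36), with -0.54 within Cy5 and 0.0019 within Cy3, and by -0.10 without SS tumor 1. In all, 0 of the 9 probes passed the adjusted threshold in this comparison, beside 0% of all probes, and 3 of the 9 had an unadjusted p under 0.05, beside 6.89% of all probes.

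By chondroblastic component, CTNNA1 had the lowest p-values. On the centred scale its 3 probes ran in the 8 chondroblastic tumors from -0.15 through 0.15 to 0.58, from -0.13 through 0.21 to 0.55 and from -0.25 through 0.05 to 0.81. In the other 24 tumors they ran from -0.41 through -0.04 to 0.35, from -0.68 through -0.01 to 0.44 and from -0.67 through -0.01 to 0.55. The groups overlapped widely, and LS tumor 31, a chondroblastic tumor, was the highest of all at each probe. The differences were 0.21, 0.26 and 0.26 (unadjusted p = 0.0251, 0.0286 and 0.0640, limma adjusted p = 0.9998 for each). They were 0.28, 0.34 and 0.38 within Cy5, where 5 chondroblastic tumors lay, and 0.11, 0.15 and 0.09 within Cy3, where 3 lay. FRZB, in spite of its known link to cartilage, differed by 0.04 at probe 1035 (95% interval -0.48 to 0.55) and by 0.0026 at probe 3606 (95% interval -0.28 to 0.28). Without LS tumor 26 these values were -0.19 and -0.16, and within Cy5 and Cy3 they were -0.28 and 0.48 at probe 1035 and -0.10 and 0.14 at probe 3606. Of the 9 probes, 0 passed the adjusted threshold beside 0% of all probes, and 2 had an unadjusted p under 0.05 beside 1.91% of all probes. That count of 2 was 0 without SS tumor 1, without SS tumor 10, without LS tumor 31 and with array weights.

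Telangiectatic tumors numbered only 4. The 9 probes differed from the other tumors by -1.38 to 0.37, with a smallest unadjusted p of 0.0974, for CSNK1A1 probe 11072. None reached an unadjusted p of 0.05, beside 4.82% of all probes, and 0 of the 9 passed the adjusted threshold in limma, beside 0% of all probes. With survival group and the other components in the model 2 of the 9 had an unadjusted p under 0.05, CSNK1A1 probe 11072 with -1.78 and CTNNA1 probe 16040 with 0.37 (unadjusted p = 0.0363 and 0.0407), beside 4.34% of all probes. With the Cy3 sign turned 2 were again under 0.05, CTNNA1 probes 12136 and 16040 with -0.32 and -0.37, beside 6.42% of all probes. By grade the counts were again 0 of 9 for both, beside 3.81% and 0% of all probes. The lowest p by grade was that of DKK3, which was lower in the 25 high grade tumors by a difference of -0.67 (95% interval -1.43 to 0.09, unadjusted p = 0.0838). With survival group and histological components in the model, DKK3 with -0.73 (unadjusted p = 0.0476) and the 3 CTNNA1 probes with 0.21, 0.25 and 0.33 (unadjusted p = 0.0278, 0.0217 and 0.0142) were under 0.05, beside 3.68% of all probes, and none passed the adjusted threshold in limma. Only 2 of the 7 tumors of lower grade were in Cy3, so no value was taken within orientations.

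**Figure D5:**
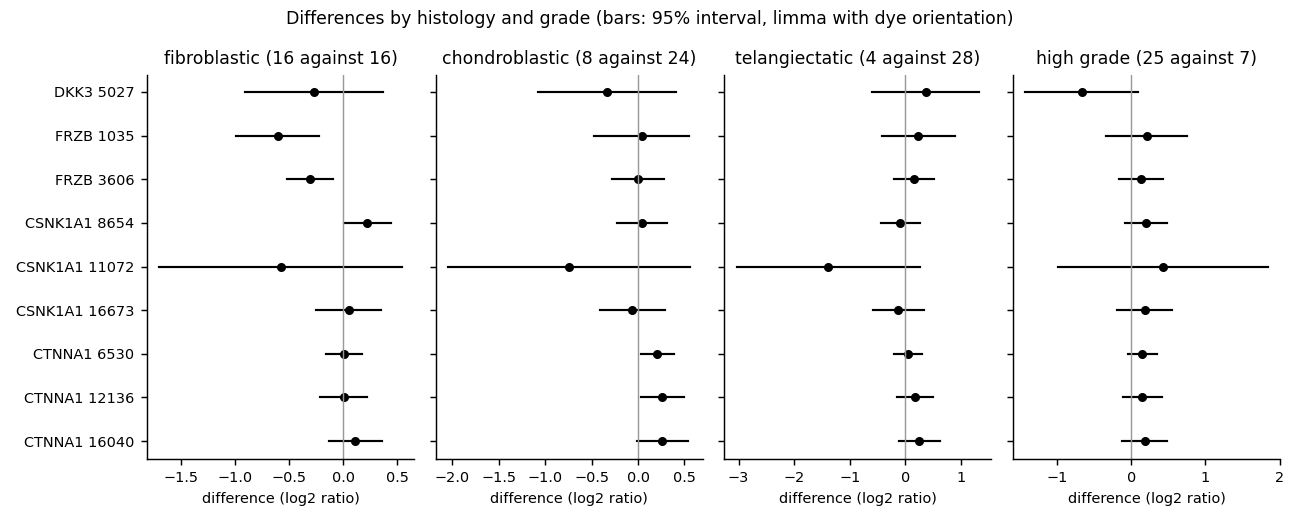
Difference in log2 ratio (x axis, a separate scale in each panel) for each probe (y axis) by fibroblastic, chondroblastic and telangiectatic component and by grade, with 95% intervals from limma with dye orientation in the model. FRZB lies left of 0 in the fibroblastic panel and the CTNNA1 probes lie right of 0 in the chondroblastic panel.

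The relation of the 4 genes to each other was tested over the 32 tumors on gene means of centred ratios, for 6 pairs. DKK3 and CSNK1A1 ran in opposite directions, with a Pearson r of -0.353 (permutation p = 0.0487, adjusted p = 0.146) and a Spearman rho of -0.485 (permutation p = 0.00550, adjusted p = 0.0293). Within orientations r was -0.174 in Cy5 and -0.739 in Cy3, and without the 2 tumors farthest from the DKK3 median it was -0.530. CSNK1A1 and CTNNA1 gave r = -0.411 (permutation p = 0.0195, adjusted p = 0.117) and rho = -0.456 (adjusted p = 0.0293 by permutation), with -0.444 in Cy5 and -0.364 in Cy3. Without the 2 tumors farthest from the CSNK1A1 median r was -0.467. When the wide CSNK1A1 probe 11072 was left out, r between CSNK1A1 and CTNNA1 was -0.150, so that relation rested on this probe, whereas r between DKK3 and CSNK1A1 was -0.358. Without this probe rho was -0.429 for CSNK1A1 with DKK3 and -0.133 for CSNK1A1 with CTNNA1 (permutation adjusted p = 0.0886 and 0.704). Within Cy5 and Cy3 alone the adjusted p of rho by permutation was 0.344 and 0.112 for DKK3 with CSNK1A1, and 0.320 and 0.304 for CSNK1A1 with CTNNA1. The secreted proteins DKK3 and FRZB gave r = 0.211 (permutation p = 0.243, adjusted p = 0.486) and rho = 0.0883, with 0.428 in Cy5 and -0.106 in Cy3. The other 3 pairs had r between 0.0203 and 0.115.

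Among 5245 other named genes, those whose gene means followed each member most closely were ranked by Pearson r over the 32 tumors on the centred scale, as a description. DKK3 was followed by SMOC2 (r = 0.781), DCN (0.722), DSE (0.706), MMP23 (0.703) and RBCK1 (0.685). DCN is decorin, a proteoglycan of connective tissue, SMOC2 a secreted matricellular protein, and DSE an enzyme that makes dermatan sulfate. For SMOC2, DCN, DSE and MMP23 r was at least 0.581 in each orientation, while RBCK1 had 0.826 in Cy5 and 0.0411 in Cy3. FRZB was followed by CPXM2 (r = 0.622), MATN2 (0.616), APBB2 (0.613), PPL (0.611) and RAB11B (0.604), all with a higher r in Cy5 than in Cy3. By rank these 5 genes followed FRZB less closely, with a Spearman rho of 0.340, 0.472, 0.492, 0.352 and 0.383 in turn.

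CTNNA1 was followed by NBR1 (r = 0.646), TSPAN9 (0.630), NELFE (0.607), ZBTB5 (0.602) and MPDZ (0.595). CSNK1A1 was followed less closely, by SSR3 (r = 0.535), CLDN10 (0.532), MAL (0.521), EPHX2 (0.514) and DOCK8 (0.507). Without its probe 11072 a different set headed the list, with RBM15 (r = 0.691), DDX5 (0.679), YY1 (0.644), SMC6 (0.640) and COIL (0.621). RBM15 and DDX5 are RNA-binding proteins and YY1 is a transcription factor. All these genes were picked as the highest of many, and genes measured on the same array share its dye and labeling.

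Fibroblast markers moved with DKK3. The mean of the 9 fibroblast genes on the array (COL3A1, DCN, FBN1, COL5A1, COL5A2, DPT, S100A4, FBLN1 and MFAP4) correlated with DKK3 at r = 0.638 over the 32 tumors. DCN, named above among the genes closest to DKK3, is part of this mean, and r without DCN was not computed. The marker mean ran from -1.02 through -0.15 to 0.66 in SS tumors and from -0.998 through 0.31 to 0.96 in LS tumors. SS minus LS of this marker mean was -0.38, and its member COL3A1, a fibrillar collagen, gave -0.75 (unadjusted p = 0.0466) at probe 4268. That probe is 1 of 19 on the fibroblast list. Of these 19, only 2 were lower in SS and 0 higher with unadjusted p below 0.05, where 3.5% of all probes were lower. After adjustment 0 of the 19 passed. The part of stroma content in the DKK3 difference was not tested. The mean of 5 endothelial genes (PECAM1, VWF, FLT1, TEK and TIE1) correlated with CTNNA1 at r = 0.429, ran from -0.26 through -0.11 to 0.79 in SS and from -0.26 through -0.0033 to 0.52 in LS, and differed between SS and LS by -0.08. Its part in the CTNNA1 values was likewise not tested.

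The wider pathway was read from a list of 212 Wnt genes, of which 60 were on the array with 86 probes. Between SS and LS 0 of the 86 probes passed the adjusted threshold, and 3 were higher and 4 lower in SS at an unadjusted p under 0.05, beside 3.63% and 3.5% of all probes. The members themselves made up 4 of those 7, and the others were CSNK2A1, a subunit of casein kinase 2 (0.21, unadjusted p = 0.0370), CSNK1G1, another casein kinase 1 (-0.22, unadjusted p = 0.0400), and TLE1, a corepressor of Wnt target genes (0.11, unadjusted p = 0.0437). The median difference was -0.0016 over the list and -0.00060 over all probes.

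Of these, CSNK2A1 and CSNK1G1 were named after their values were seen. From the list of secreted antagonists, in which DKK3 was placed, 6 genes with 8 probes were measured, with a median difference of -0.34. The members DKK3 (-0.75) and FRZB (-0.48 and -0.20 at its 2 probes) are part of this median. It is therefore not a reading of the other listed genes alone. Only 2 of the 8 probes had unadjusted p below 0.05, those of DKK3 and of FRZB with -0.48. SFRP4, a relative of FRZB, had -0.61 (unadjusted p = 0.172), WIF1, a Wnt inhibitor, 0.78 (unadjusted p = 0.312), and DKKL1, a relative of the Dickkopf proteins, -0.20 (unadjusted p = 0.208). The destruction complex list had 18 genes with 27 probes, of which 2 were higher and 1 lower at an unadjusted p under 0.05. The list of catenins and adherens junctions had 8 genes with 11 probes, of which 0 were higher and 1 lower, that of CTNNA1. CTNNB1, beta-catenin itself, gave 0.33 (unadjusted p = 0.0899) and IQGAP1, a scaffold at junctions, 0.37 (unadjusted p = 0.0671). SFRP4, WIF1, DKKL1, CTNNB1 and IQGAP1 were named after their values were seen. Among ligands and their carriers RSPO3 had the lowest p with -0.05 (unadjusted p = 0.674), among receptors LGR4 with -0.16 (unadjusted p = 0.266), and among targets BIRC5 with 0.36 (unadjusted p = 0.112). MAPK8, of the noncanonical branch, gave 0.12 (unadjusted p = 0.117). None of the ligand, receptor, target or noncanonical probes had an unadjusted p under 0.05.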

How the data were processed

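RNA of 32 snap frozen primary canine osteosarcomas was amplified to cRNA and hybridized against a pool of the same tumors on 2-color cDNA arrays. The authors removed poor spots, normalized each array by Lowess within print tips, took logarithms and reversed the ratios of arrays with swapped dyes. The values deposited by them are read here as log2 of tumor over pool. The direction follows from that reversal, and the log base and the image software are not given in the sources used here, so folds would differ if the base were not 2. Of 22176 probes, 7694 had 1 gene symbol in the platform annotation, 7340 of them were matched to current symbols and 14482 had none. There were 5 missing values, with at least 31 per probe, and array medians lay between -0.03 and 0.02. Channel intensities were not analysed here, so spot depth is unknown and the number of arrays limits the precision. Survival group and dye came from the labels. Histology, grade, age, sex and chemotherapy came from the study's list of dogs, by array number.

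All probes were fitted with limma 3.58.1 (lmFit and eBayes, two-sided) in R 4.3.3, the p-values were adjusted by Benjamini-Hochberg across the whole table, and the threshold was 0.10. SS versus LS had no covariate. Histology and grade had dye orientation as a covariate. Interactions of survival with orientation and with the fibroblastic component were fitted likewise. Pair correlations used 100000 permutations (NumPy 2.4.6 and SciPy 1.17.1, Python 3.11.15). The limma and SAM tests were tested on simulated data. Alternatives covered covariates, scaling, array weights, test, outcome, sign of the Cy3 arrays and each array left out.

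Named are all 9 probes, the 5 genes most like each member, for each Wnt role the genes past the threshold or else that with the smallest p, and up to 4 markers per list. The members and lists were chosen with earlier results of these data known. Of the marker lists, those for osteoblast, skeletal muscle, leukocyte, osteoclast and epithelium had SS minus LS means of -0.03, -0.23, 0.15, 0.45 and -0.02, and no erythroid marker had a probe under the symbols searched. Sequences of the genes and of the probes were not used here.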

Additional observations from a re-analysis of the deposited data

Results flagged for a closer look

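Each of the 9 probes was checked for a tumor far from the rest of its group, in the 4 groups of 8 arrays that share survival group and dye. A tumor was marked where its gap to the nearest other tumor, as a share of the range of the group, was over the 95% critical value of the Dixon test, a limit that chance passes in about 1 of 20 groups. Of 36 groups, 4 held such a tumor, all of them in Cy5. LS tumor 29 had a log2 ratio of 1.76 at FRZB probe 1035, against 0.14 for the next tumor. LS tumor 17 had 4.04 at CSNK1A1 probe 11072, against 1.35 for the next. SS tumor 1 had 0.37 at CTNNA1 probe 6530, against -0.03 for the next. LS tumor 31 had 0.61 at CTNNA1 probe 16040, against -0.02 for the next. LS tumor 29 was also the highest of its group at FRZB probe 3606 (0.69), whereas LS tumor 17 had -0.23 and -0.14 at CSNK1A1 probes 8654 and 16673, within the range of its group.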

How the results depend on the processing

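Between SS and LS, limma without a covariate called 0 of all 22176 probes (1581 at an unadjusted p under 0.05, and 0 by the rank-sum test). The count was 94 with dye orientation as a block, 28 with orientation and histological components, 1311 in the Cy5 and 2129 in the Cy3 tumors alone, 2 with median and MAD scaling, 1 with quantile normalization, 3 with array weights, 45 by SAM, 46 with log10 survival time as outcome, 2214 with the sign of the Cy3 arrays turned, and 0 to 2 with each array left out. None of these settings called any of the 9 probes. At an unadjusted p under 0.05 their number is given with the share of all probes in brackets. It was 4 without a covariate (7.13%), 0 with the Cy3 sign turned (19.7%), 1 in Cy5 (14.5%) and 3 in Cy3 (22.8%). With each array left out it was 3 to 5. By fibroblastic component it was 3 (6.89%), and 0 with the Cy3 sign turned (3.09%). By chondroblastic component it was 2 (1.91%), 3 with survival group and the other components (3.04%), and 0 to 3 with each array left out. With each array left out, 0 to 15 probes were called by telangiectatic component and 0 of the 9. Array weights raised the calls of the orientation interaction from 2384 to 3965, and those of the 9 from 0 to 1. The cause of these changes was not tested.

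Several differences crossed 0, none of them past the threshold. For SS minus LS, FRZB probe 3606 gave 0.012 in Cy5, 0.21 with the Cy3 sign turned and 0.0030 among fibroblastic tumors. CSNK1A1 probe 8654 gave -0.0042 in Cy3, CSNK1A1 probe 16673 gave -0.084 with the Cy3 sign turned, CTNNA1 probe 6530 gave 0.013 in Cy3 and CTNNA1 probe 16040 gave 0.026 among fibroblastic tumors. By fibroblastic component FRZB probe 1035 gave 0.075 with the Cy3 sign turned and DKK3 0.0019 in Cy3. The interaction of survival group with the fibroblastic component, with the Cy3 sign turned, was 0.58 for DKK3, -0.43 for FRZB probe 1035 and -0.17 for FRZB probe 3606. With the Cy3 sign turned, DKK3 gave 0.037 by grade and CSNK1A1 probe 11072 gave 0.34 by telangiectatic component. By chondroblastic component FRZB probe 1035 gave -0.014 without covariate, -0.11 with survival group and the other components, -0.36 with the Cy3 sign turned, -0.28 in Cy5 and -0.19 to 0.16 with each array left out. FRZB probe 3606 gave -0.062 with the other components, -0.0043 with MAD scaling, -0.12 with the Cy3 sign turned, -0.10 in Cy5 and -0.16 to 0.076 with each array left out. Among pair correlations, DKK3 with FRZB was -0.106 and DKK3 with CTNNA1 -0.117 in Cy3, and FRZB with CTNNA1 was -0.0235 in Cy5. FRZB with CSNK1A1 was -0.0385 without centring and -0.169 without CSNK1A1 probe 11072. By Pearson r the adjusted threshold was passed by DKK3 with CSNK1A1 in Cy3 (-0.739) and without the 2 farthest tumors (-0.530), and by CSNK1A1 with CTNNA1 without the 2 farthest tumors (-0.467). By Spearman rho it was also passed by DKK3 with CTNNA1 without the 2 farthest tumors (rho = 0.370, permutation adjusted p = 0.0894). Values within strata or orientations for histology and pairs, those without probe 11072, and the turned interaction were chosen after seeing the data. No paired analysis was possible because each tumor came from a different dog, so no SS array had an LS partner.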
